A study of Danio rerio with 6 samples.

Results

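The genes described here encode nuclear receptors and the enzymes that make and remove retinoic acid, the ligand of one branch of that receptor family. The group was chosen with earlier results of these data known, and its probe sets were then taken by symbol alone. Every probe set annotated to exactly 1 gene entered if its symbol was of the NR series or the cyp26 or aldh1a enzyme families. Also entered were symbols of retinoic acid, retinoid X, peroxisome proliferator-activated, estrogen, thyroid hormone, vitamin D and ROR receptors. The rule found 57 probe sets of 43 genes among 15502 probe sets tested on the array. No peroxisome proliferator-activated receptor gene was among the 43. Of the 57, 50 probe sets belonged to 39 receptor genes, and the others to aldh1a2, cyp26a1, cyp26b1 and cyp26c1.

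Nuclear receptors are transcription factors that bind DNA and, in many cases, a small lipid-soluble ligand such as a steroid, thyroid hormone or a retinoid. Retinoic acid is made from vitamin A, with aldh1a enzymes carrying out the last oxidation and cyp26 enzymes breaking the product down, and it acts through retinoic acid receptors (rar genes) paired with retinoid X receptors (rxr genes). In the zebrafish gastrula aldh1a2 is transcribed at the embryonic margin and cyp26a1 in the future anterior neural tissue and at the margin, and the signal between them is known for patterning the hindbrain and for activating hox genes.

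Transcripts were measured on 6 zebrafish Affymetrix arrays. The control group was 3 pools of wildtype AB strain embryos, and the EWS-FLI1 group 3 pools of Tg(HSP:EWS-FLI1) embryos, whose transgene places the gene fusion behind Ewing sarcoma, of human origin, under control of heat. At 50% epiboly embryos of both lines got a heat shock of 30 min at 39 °C, then 2 h of recovery at 28.5 °C, and RNA came from 40 pooled embryos, so each array is 1 pool and the comparison is between lines after the same heat shock. The heat shock promoter that drives it is not restricted to a tissue, the share of embryos in a pool that carried the transgene is not given in the sources used here, and expression of the fusion was not examined.

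All values are log2 RMA values, and every difference is the EWS-FLI1 mean less the control mean (log2), tested with limma and adjusted over all 15502 probe sets. "Fell" and "rose" are used of probe sets with an adjusted p under 0.05. A value is called within background when a group mean was at or under 4.23, the 95th percentile of 44 bacterial and tag control probe sets, since below it a level cannot be told from unspecific signal. Correlations between arrays were 0.991 to 0.994 within controls, 0.998 within the EWS-FLI1 group and 0.982 to 0.988 between groups, and the median SD was 0.135 in controls and 0.0917 in EWS-FLI1 embryos. Of 20 gastrula markers, checked against the labelled stage, only mixl1 was within background in both groups. Of these 20 markers 9 fell, among them foxd3 (-1.42) and tp63 (-1.33), and tbxta rose (0.54). Among all 8793 genes 7.12% fell and 5.65% rose. The summed linear level of the 20 markers was 12900 to 15300 in controls and 9330 to 10700 in EWS-FLI1 embryos.

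Most of the change was downward and lay in the retinoic acid branch, the COUP factors and nr0b2a. Of the 57 probe sets 12 fell (21.1%), against a background of 6.46% of all probe sets, and 2 rose (3.51%), against 5.38%. The 12 belonged to 10 genes: aldh1a2, cyp26a1, cyp26b1, raraa, rarab, rarga, nr2f1a, nr2f5, nr2f6b and nr0b2a. The 2 that rose were of rxrab and esr1, both within background in both groups. Because whole embryos were pooled, fewer cells that use a gene and less RNA of it per cell cannot be told apart.

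**Figure D1:**
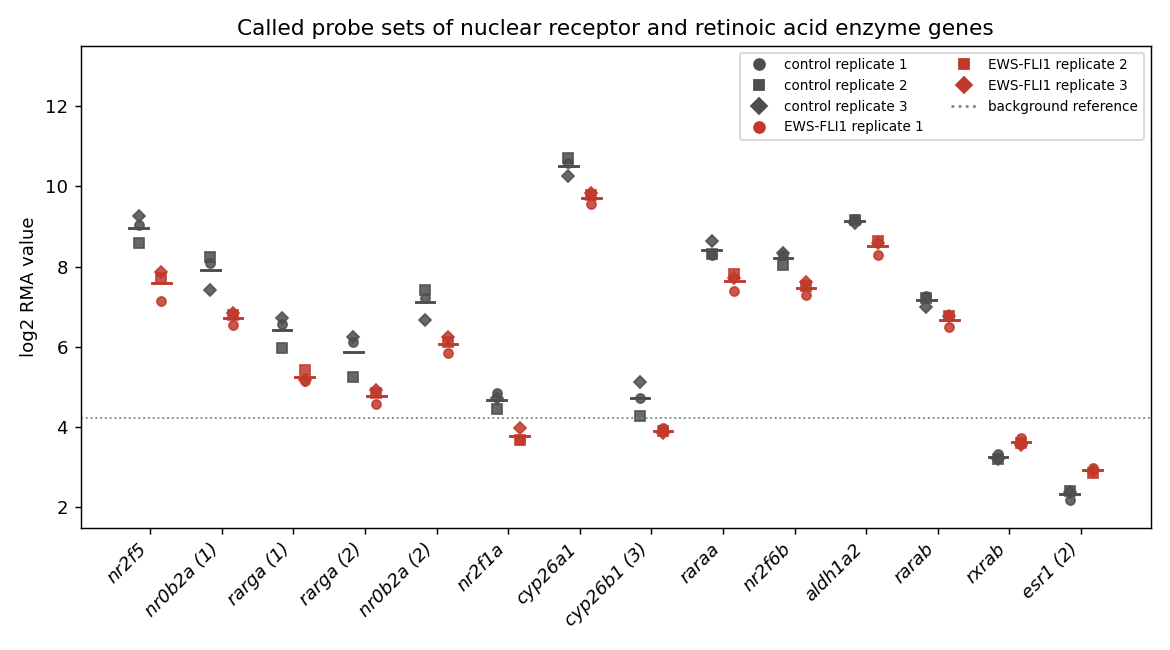
Log2 RMA values of the 14 called probe sets on each of the 6 arrays, controls in grey and EWS-FLI1 in red, with a marker shape per replicate, short bars for group means and a dotted line at the background reference of 4.23. The 12 fallen probe sets stand to the left, rxrab and esr1 to the right under the line, and in none of the 14 do the groups overlap.

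The groups did not overlap at 20 of the 57 probe sets (35.1%), against a background of 29.0% of all probe sets in either direction. EWS-FLI1 was the lower group at 16 of the 57 (28.1%), against a background of 14.8%, and the higher group at 4 of the 57 (7.02%), against 14.1%. The median difference of the 57 was -0.04, beside 0.00 over all probe sets. Of the 57, 26 (45.6%) were within background in both groups, compared with 37.3% of all probe sets.

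**Figure D2:**
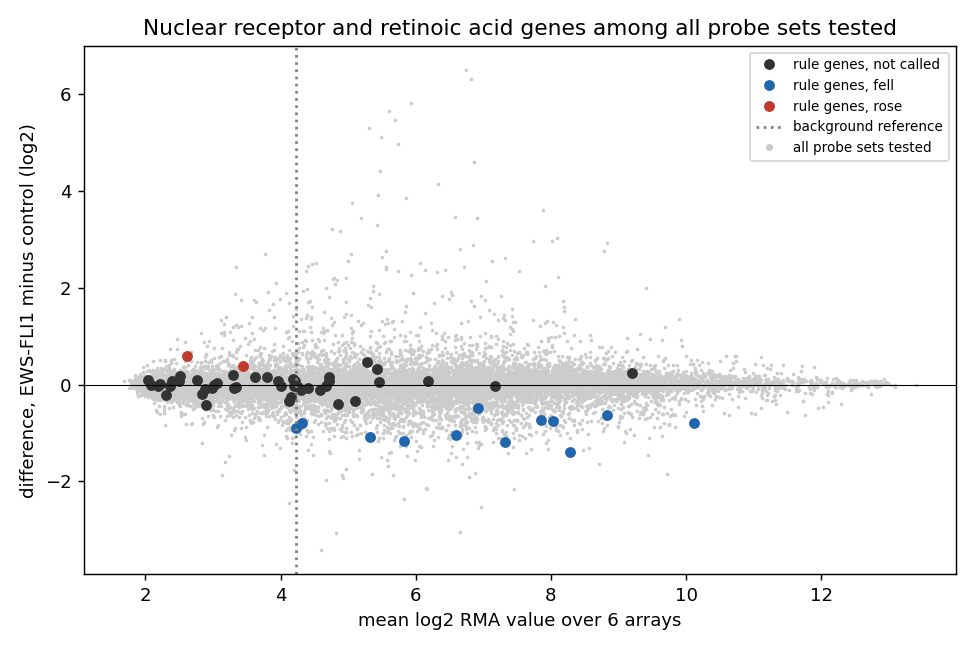
Mean log2 RMA value over 6 arrays (horizontal) against the difference EWS-FLI1 minus control (vertical, log2) for all 15502 probe sets in light grey and the 57 receptor and enzyme probe sets in colour. The 12 fallen ones lie at or to the right of the dotted background reference, between -0.48 and -1.39, and the 2 raised ones lie to its left.

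Synthesis of retinoic acid was represented by aldh1a2, the main retinaldehyde dehydrogenase of the early embryo. Its values were 9.18, 9.17 and 9.10 in the controls and 8.29, 8.64 and 8.59 in EWS-FLI1 embryos. All 3 EWS-FLI1 arrays lay under all 3 controls, with replicate 1 lowest. With means of 9.15 ± 0.04 and 8.51 ± 0.19 (SD, n = 3), the gene fell by 0.64 (limma SE 0.11, adjusted p = 0.00604), which makes the control level 1.56 times that of EWS-FLI1 embryos.

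Of the enzymes that oxidise retinoic acid for removal, cyp26a1 was measured well above background. It gave 10.58, 10.72 and 10.26 in controls and 9.55, 9.78 and 9.83 in EWS-FLI1 embryos, with no overlap, and fell by 0.80 (SE 0.13, adjusted p = 0.00592). cyp26a1 is also a retinoic acid target in zebrafish, so it stands on both sides of the pathway.

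cyp26b1, the family member best known from the hindbrain and skeleton, had 4 probe sets that gave unequal results. The third, in order of their identifiers, fell by 0.80 (SE 0.18, adjusted p = 0.0236), from 4.73, 4.29 and 5.13 in controls to 3.98, 3.90 and 3.86, a level within background. The controls of this probe set spread over more than the EWS-FLI1 arrays did, and its call was lost without control replicate 1 or any 1 EWS-FLI1 replicate (highest adjusted p = 0.0963). The first gave 5.22, 5.07 and 5.53 against 4.95, 4.91 and 4.92, a difference of -0.35 (95% interval -0.62 to -0.07, adjusted p = 0.107), and it was called only without control replicate 2 (adjusted p = 0.0302).

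The second and the fourth probe sets of cyp26b1 differed by 0.15 (adjusted p = 0.439) and -0.12 (adjusted p = 0.562), the second within background in both groups. The test of the within-array difference separated the second from the third by 0.95 (SE 0.19, adjusted p = 0.0192), a call that ended when EWS-FLI1 replicate 2 or 3 was left out (adjusted p up to 0.0887), and none of the other 5 pairs of cyp26b1 probe sets. In that test 6.06% of 2608 same-gene pairs of the array were called, against 1 of 21 pairs among the 9 receptor and enzyme genes with several probe sets. cyp26c1, the third family member, gave 4.11, 4.26 and 4.45 against 4.03, 3.96 and 4.08, with no overlap but a difference of -0.25 (95% interval -0.49 to -0.01, adjusted p = 0.181). Its control mean of 4.27 lay just above the background reference, and its EWS-FLI1 mean of 4.02 was within background.

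All 3 measured retinoic acid receptor genes fell, at each of their 4 probe sets. rarga, which encodes a gamma type receptor, fell most: its first probe set gave 6.56, 5.97 and 6.71 in controls and 5.16, 5.42 and 5.18 in EWS-FLI1 embryos. Control replicate 2 was the lowest control but still above every EWS-FLI1 array. It fell by 1.16 (SE 0.18, adjusted p = 0.00435), which put the control level at 2.23 times the EWS-FLI1 level.

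A second probe set of rarga, of a kind whose probes can match several transcripts, fell by 1.09 (SE 0.24, adjusted p = 0.019). It showed the same low control replicate 2 (5.26, beside 6.12 and 6.26) over EWS-FLI1 values of 4.59, 4.86 and 4.92, and its call was lost without control replicate 1 or any 1 EWS-FLI1 replicate (highest adjusted p = 0.0921). The 2 probe sets' differences were -0.07 apart (first minus second, 95% interval -0.37 to 0.23, adjusted p = 0.854).

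raraa fell by 0.76 (SE 0.14, adjusted p = 0.00846), from 8.30, 8.31 and 8.63 to 7.40, 7.82 and 7.73. The lowest control stood clear of the highest EWS-FLI1 array. rarab, its paralog, fell by 0.48 (SE 0.11, adjusted p = 0.0274), from 7.26, 7.23 and 7.00 to 6.49, 6.78 and 6.77, the smallest fall among the 12.

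The rarab call was the least firm of the retinoic acid receptors. It was lost with the replicate number as a block (adjusted p = 0.0547), without control replicate 1 and without any 1 EWS-FLI1 replicate, where the highest adjusted p was 0.111. The difference between the changes of raraa and rarab was -0.28 (95% interval -0.66 to 0.10, adjusted p = 0.311).

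Of the 4 retinoid X receptor genes, whose products pair with retinoic acid receptors and with several other nuclear receptors, 1 was called. rxrab rose by 0.39 (SE 0.09, adjusted p = 0.0236), from 3.33, 3.21 and 3.20 to 3.73, 3.61 and 3.56, without overlap but within background in both groups, and its call was lost without any 1 EWS-FLI1 replicate (highest adjusted p = 0.11). rxrba gave 4.88, 5.40 and 4.86 against 5.44, 5.48 and 5.59, a difference of 0.46 (95% interval 0.12 to 0.79, adjusted p = 0.0834). Control replicate 2 stood apart here too, close to the EWS-FLI1 arrays, and rxrba was called without it (0.63, adjusted p = 0.00298).

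rxrga had the opposite sign, with 5.16, 4.87 and 5.12 in controls and 4.60, 4.56 and 4.80 in EWS-FLI1 embryos. The groups did not overlap, and the difference of -0.40 (95% interval -0.65 to -0.14, adjusted p = 0.052) missed the threshold narrowly, and 5 of 12 alternatives called it. rxrbb differed by 0.16 (95% interval -0.08 to 0.40, adjusted p = 0.426). Between the paralogs rxrba and rxrbb the change was unequal by 0.30 (95% interval -0.06 to 0.65, adjusted p = 0.239).

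**Figure D3:**
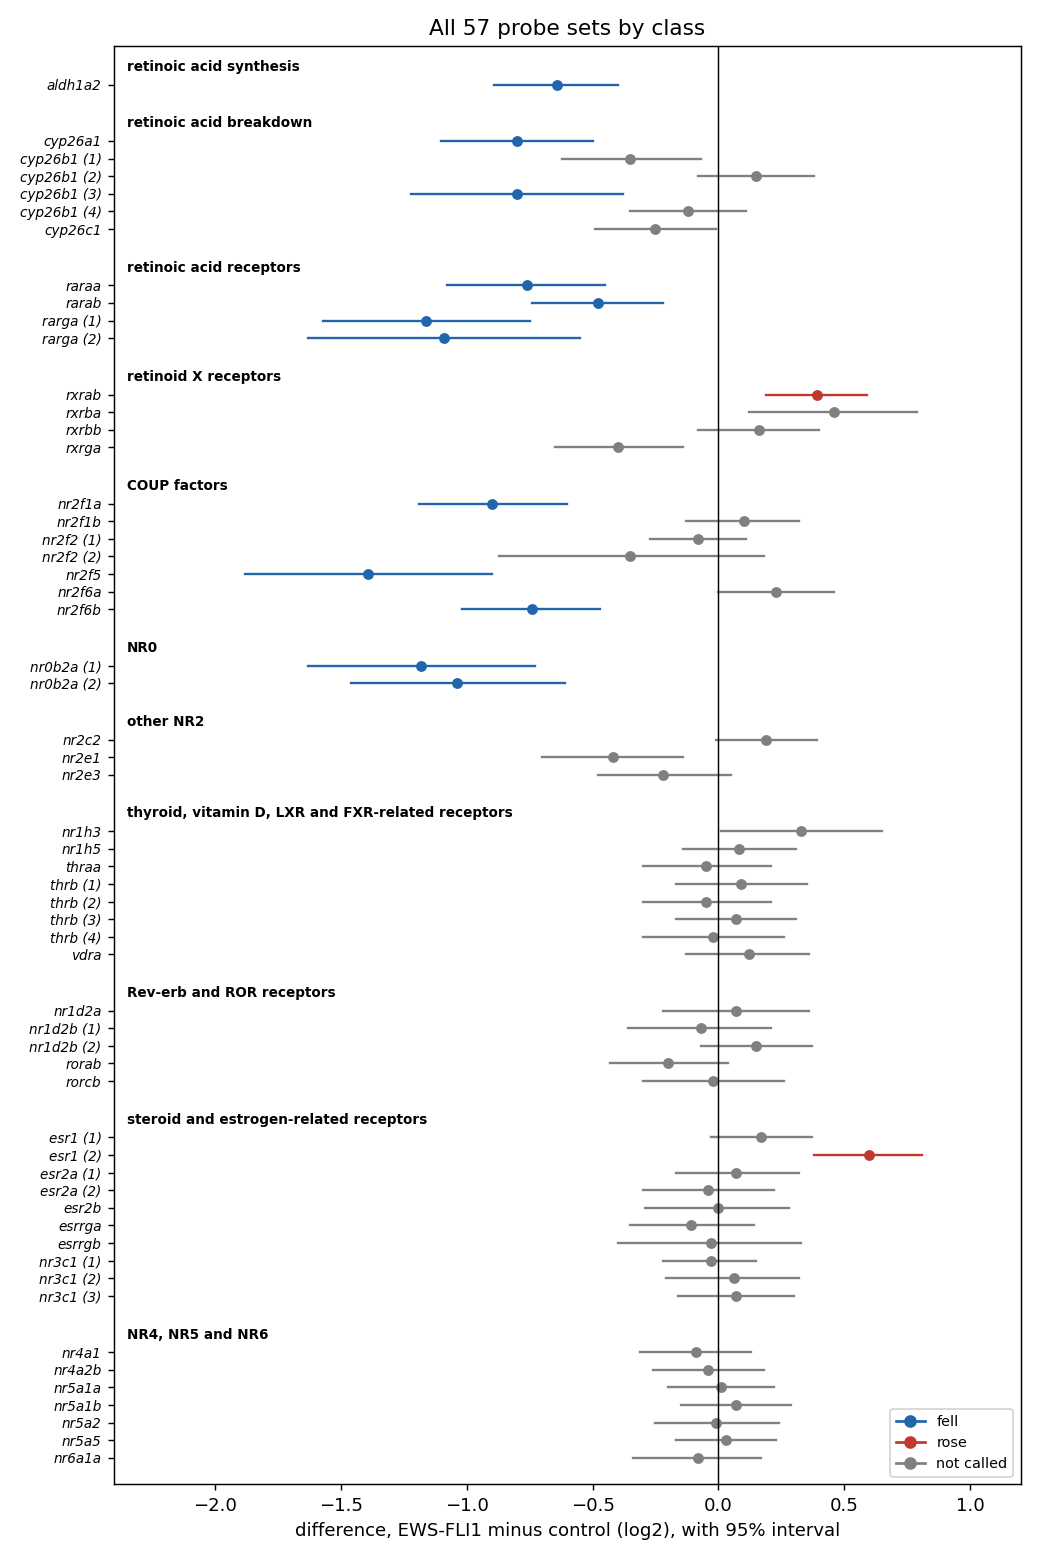
Difference EWS-FLI1 minus control (log2, horizontal) with its 95% interval for all 57 probe sets, grouped by class, blue where a probe set fell, red where it rose and grey where it was not called; several probe sets of a gene are numbered in order of their identifiers. The retinoic acid receptors and nr0b2a lie wholly left of 0, and the 23 probe sets of the 4 classes with no call lie between -0.42 and 0.33.

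The COUP factors are orphan receptors of the nr2f group, which bind the same kind of DNA repeat as retinoic acid receptors and are used in the nervous system, head and heart. Of their 6 measured genes nr2f5, nr2f1a and nr2f6b fell, and nr2f1b, nr2f2 and nr2f6a were not called. nr2f5 had the largest difference of all 57 probe sets: 9.05, 8.60 and 9.26 in controls against 7.15, 7.73 and 7.87, and it fell by 1.39 (SE 0.21, adjusted p = 0.00425). Its control level was 2.61 times the EWS-FLI1 level, and control replicate 2 was again the lowest control.

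nr2f1a, which is needed for atrial identity in the zebrafish heart, fell by 0.90 (SE 0.13, adjusted p = 0.00305). It went from 4.85, 4.45 and 4.74 to 3.69, 3.69 and 3.97, with all EWS-FLI1 arrays within background. nr2f6b fell by 0.74 (SE 0.12, adjusted p = 0.00502), from 8.28, 8.03 and 8.35 to 7.30, 7.51 and 7.62, far above background on every array.

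nr2f6a, the paralog of nr2f6b, gave 9.25, 8.93 and 9.07 in controls and 9.25, 9.32 and 9.36 in EWS-FLI1 embryos, a difference of 0.23 (95% interval 0.00 to 0.46, adjusted p = 0.213). A test of the within-array difference between a and b paralogs, added after the values were seen and fitted over the 664 such pairs on the array, gave 0.97 for nr2f6a minus nr2f6b (SE 0.13, adjusted p = 9.0e-04). Of all 664 pairs 17.5% were called.

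nr2f1a minus nr2f1b gave -0.99 in the same test (SE 0.16, adjusted p = 0.00275), but nr2f1b, at 1.99 ± 0.12 against 2.09 ± 0.12 (SD, n = 3), was within background throughout. Both calls held without any 1 array and with the replicate block (adjusted p between 1.8e-04 and 0.0193). The other 6 receptor pairs tested were not called, and these 2 were chosen for description after their differences were known. nr2f2 had a probe set near 3 in both groups and another with a wide spread, 4.36, 3.78 and 4.74 against 4.05, 3.65 and 4.14 (-0.35, 95% interval -0.87 to 0.18, adjusted p = 0.425). Only without control replicate 2 was the latter called (-0.60, adjusted p = 0.0455).

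**Figure D4:**
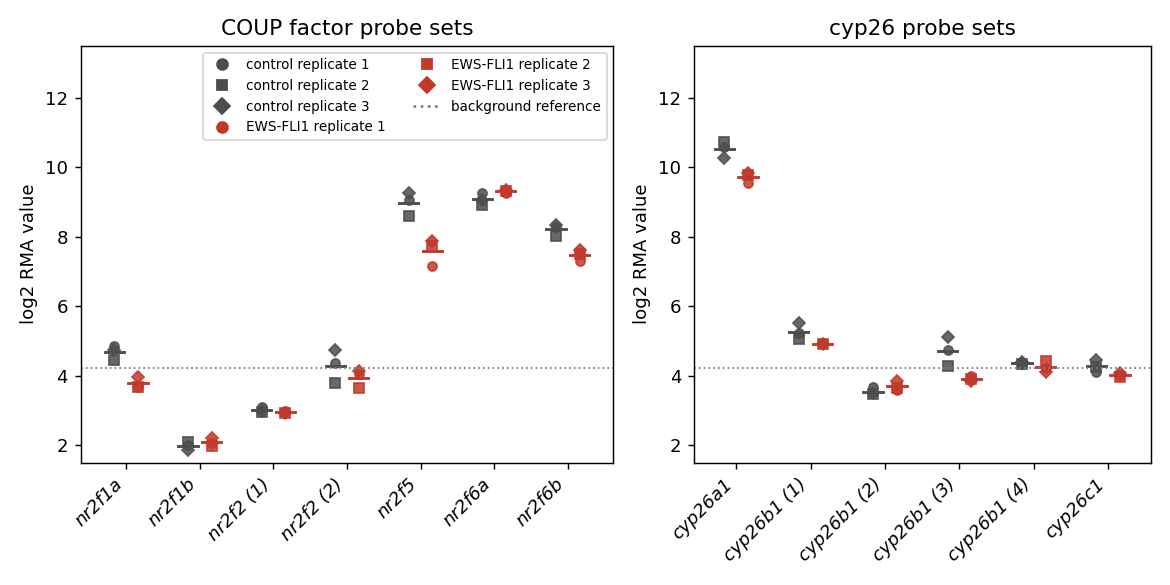
Log2 RMA values per array of the COUP factor probe sets (left) and the cyp26 probe sets (right), controls in grey and EWS-FLI1 in red with a marker shape per replicate, bars for group means and a dotted line at the background reference. nr2f5 and nr2f6b drop while nr2f6a stays between 8.93 and 9.36 on all arrays, and of the 4 cyp26b1 probe sets the third shows the widest gap between the groups.

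nr0b2a encodes a zebrafish counterpart of SHP, a receptor relative without a DNA-binding domain that represses other nuclear receptors. Its first probe set gave 8.08, 8.23 and 7.41 in controls and 6.55, 6.79 and 6.85 in EWS-FLI1 embryos, and fell by 1.18 (SE 0.20, adjusted p = 0.00612). The second gave 7.23, 7.43 and 6.68 against 5.86, 6.12 and 6.25, and fell by 1.04 (SE 0.19, adjusted p = 0.00876). Control replicate 3 was the lowest control in both and no groups overlapped. As the probe sets share a source sequence, they do not count as separate evidence.

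Of 10 probe sets of steroid and estrogen-related receptors 1 was called, a share near the 11.8% of all probe sets called in either direction. nr3c1, the glucocorticoid receptor gene, had 3 probe sets above background that differed by -0.03, 0.06 and 0.07 (widest 95% interval -0.21 to 0.32), and none was called. The second probe set of the estrogen receptor gene esr1 rose by 0.60 (SE 0.09, adjusted p = 0.00435), from 2.19, 2.40 and 2.39 to 2.99, 2.86 and 2.92. These values lay far under the background reference, and the other probe set of esr1 gave 0.17 (adjusted p = 0.28), so the level of the transcript is not resolved.

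esr2a, esr2b and the estrogen-related receptor genes esrrga and esrrgb differed by -0.11 to 0.07, with adjusted p of 0.636 or more. Of the NR2 receptors outside the COUP group, nr2e1, a regulator of neural progenitors and the eye, gave 3.11, 2.90 and 3.32 against 2.65, 2.82 and 2.60. The groups did not overlap, yet both were within background (-0.42, 95% interval -0.70 to -0.14, adjusted p = 0.0599). In 3 of 12 alternatives nr2e1 was called, with the lowest limma adjusted p (0.0153) without control replicate 2. nr2c2 (0.19) and the photoreceptor gene nr2e3 (-0.22) were within background as well.

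The receptors for thyroid hormone, vitamin D and sterols gave no call at 8 probe sets of 5 genes. nr1h3, the liver X receptor gene, had the largest of these differences, with 5.24, 5.51 and 5.06 against 5.72, 5.37 and 5.70, where the groups overlapped (0.33, 95% interval 0.01 to 0.65, adjusted p = 0.194). thraa differed by -0.05, the 4 probe sets of thrb by -0.05 to 0.09, vdra by 0.12 and nr1h5 by 0.08. Of the Rev-erb and ROR receptor genes, which act in the circadian clock, nr1d2a, nr1d2b, rorab and rorcb differed by -0.20 to 0.15 and none was called.

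The NR4, NR5 and NR6 genes nr4a1, nr4a2b, nr5a1a, nr5a1b, nr5a2, nr5a5 and nr6a1a lay within background in both groups at all 7 probe sets. Their differences ran from -0.09 to 0.07, with adjusted p of 0.644 or more. The 4 classes with no call in the main analysis, the NR4 to NR6 genes among them, held 23 probe sets of 19 genes. Of these probe sets 17 were within background in both groups. By limma 2 of the 23 had an unadjusted p under 0.05, nr2e1 (lower) and nr1h3 (higher).

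Across the 12 fallen probe sets EWS-FLI1 replicate 1 was the lowest of its group at 11, counting nr2f1a, where it tied with replicate 2. Among controls replicate 2 was lowest at 6, replicate 3 at 5 and replicate 1 at 1. Without control replicate 2 the calls numbered 16 fallen and 3 raised. Without any 1 array at least 9 fell.

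Outside the receptors and the 2 enzyme families, genes of retinoid handling moved in both directions. Of 15 further genes measured 2 fell and 2 rose, beside 7.12% fallen and 5.65% raised among all 8793 genes, with a median of -0.25 against 0.00 over all genes. stra6, a receptor that takes up retinol from its carrier protein, averaged 5.44 ± 0.42 in controls and 4.03 ± 0.17 in EWS-FLI1 embryos (SD, n = 3) and fell by 1.41 (limma SE 0.19, adjusted p = 0.00258), with every EWS-FLI1 array within background. dhrs3a, which turns retinaldehyde back to retinol, fell by 0.75 (SE 0.13, adjusted p = 0.00644), from 6.25, 6.30 and 6.32 to 5.25, 5.72 and 5.66.

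The 2 that rose were dhrs9 and stra6l. dhrs9, a dehydrogenase of the family that acts on retinol, rose by 0.67 (SE 0.09, adjusted p = 0.00229), from 7.21, 7.20 and 7.15 to 7.81, 7.77 and 7.99, with tight groups far apart. stra6l, a relative of stra6, rose by 0.60 (adjusted p = 0.0149), a call that ended when control replicate 1, EWS-FLI1 replicate 1 or EWS-FLI1 replicate 2 was left out (adjusted p up to 0.0534). Of the genes not called, picked after their values were seen, the retinol dehydrogenase gene rdh10b gave 8.24, 8.27 and 8.32 against 7.85, 8.13 and 8.09 (-0.25, adjusted p = 0.148), and the retinoic acid binding protein genes crabp2a (-0.67, adjusted p = 0.214) and crabp2b (-0.49, adjusted p = 0.064) were not called.

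Genes known to respond to retinoic acid fell more often than rose. Leaving out receptors and enzymes of the rule, 12 of 29 fell, 1 rose and 16 were not called, with a median of -0.39. dhrs3a, among the 12, was also counted in the retinoid handling list. hoxa3a, also among the 12 and named after its values were seen, was within background in both groups. Among all 8793 genes 7.12% fell and 5.65% rose. The fall was not particular to this list, as 9 of the 20 gastrula markers fell, with a median of -0.41. cdx4, which was not called, is in both lists. The largest falls among the 29 were in the anterior hox genes hoxb1a, hoxd4a and hoxb3a. hoxb1a went from 6.41, 5.82 and 6.79 to 4.71, 5.13 and 4.99 (-1.40, SE 0.22, adjusted p = 0.00489), with control replicate 2 lowest of the controls as in rarga. hoxd4a (-1.07, adjusted p = 0.0199) lost its call without any 1 EWS-FLI1 replicate (highest adjusted p = 0.093), and hoxb3a (-1.07, adjusted p = 0.00895) missed the threshold at 0.0505 without EWS-FLI1 replicate 1.

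The hox partner genes meis1b (-1.03), meis2b (-0.91) and meis3 (-0.84), named after their values were seen, fell too, meis3 losing its call without control replicate 1 or any 1 EWS-FLI1 replicate (highest adjusted p = 0.123). pbx3b, another hox partner, was the one that rose (0.83, SE 0.09, adjusted p = 0.00106), from 3.37, 3.51 and 3.56, within background, to 4.23, 4.28 and 4.43. The list also held meis1a (-0.22, adjusted p = 0.424), meis2a (-0.39, adjusted p = 0.294) and pbx1a (-0.09, adjusted p = 0.616), which were not called. Further uncalled genes were hoxa4a (-0.95, adjusted p = 0.0607), cdx4 (-0.33, adjusted p = 0.0827), and hoxa1a (-0.03) and hoxd3a (0.02), both within background. All these uncalled genes were named after their values were seen.

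**Figure D5:**
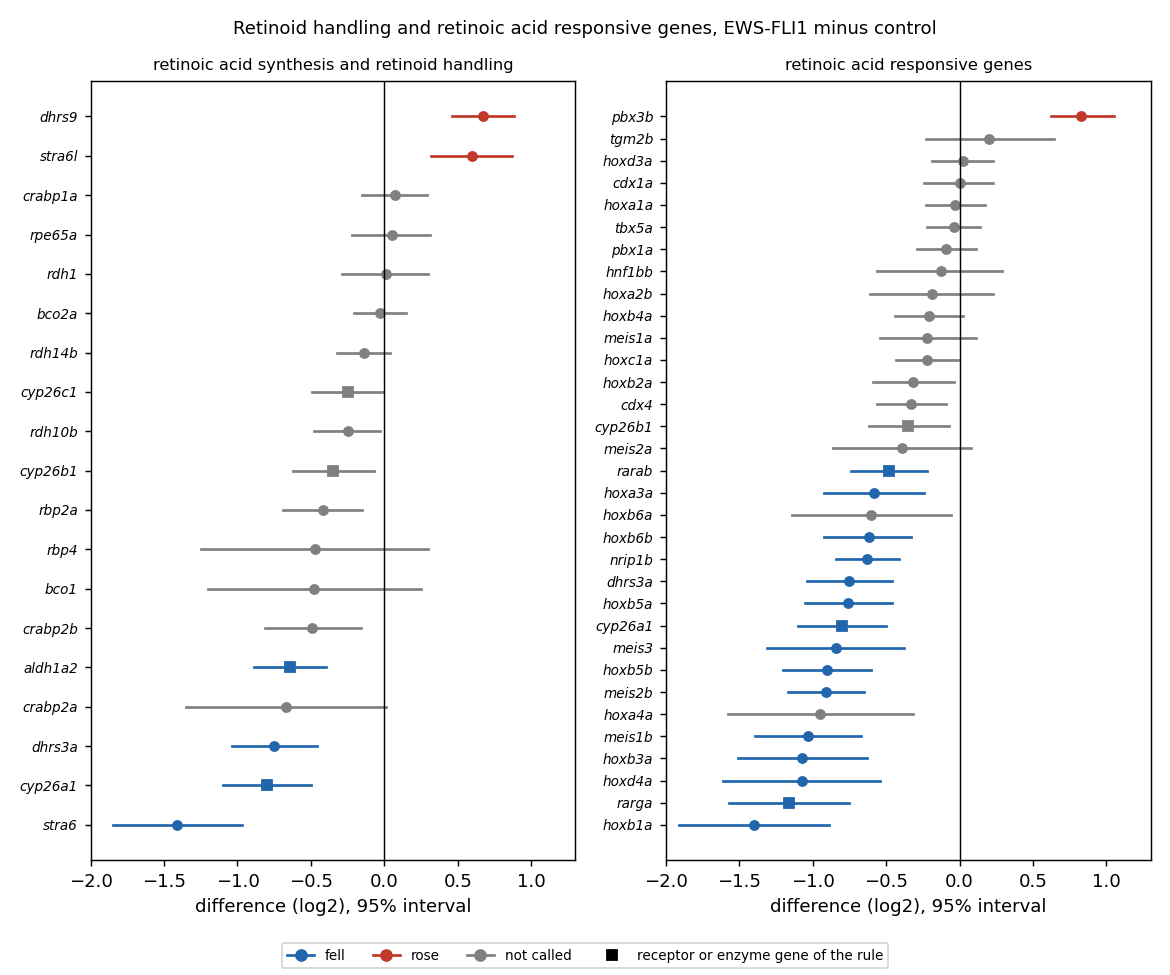
Difference EWS-FLI1 minus control (log2) with its 95% interval for 19 genes of retinoid handling (left) and 33 retinoic acid responsive genes (right), 1 probe set per gene, blue for fallen, red for raised and grey for not called, with squares for genes of the rule. stra6 and hoxb1a stand lowest, at -1.41 and -1.40, and dhrs9, stra6l and pbx3b are the raised genes.

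Coregulators, the proteins that nuclear receptors recruit, showed 1 fall in 20 measured genes, beside 7.12% of all genes, and a median of 0.03. The one that fell was nrip1b, a corepressor that is itself listed as retinoic acid responsive, from 5.98, 5.86 and 6.03 to 5.33, 5.44 and 5.22 (-0.63, SE 0.09, adjusted p = 0.00377). The other 19 were not called, 3 of them lower and 2 higher at an unadjusted p under 0.05 by limma.

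Among lipid genes that peroxisome proliferator-activated and liver X receptors are known to control, 5 of 34 fell and none rose by limma. Of these genes 10 were lower and 3 higher at an unadjusted p under 0.05, and the median was -0.09. Over all genes 7.12% fell and 5.65% rose. angptl4, an inhibitor of lipoprotein lipase, fell by 1.55 (SE 0.14, adjusted p = 3.3e-04), from 6.99, 6.42 and 6.91 to 5.25, 5.23 and 5.18. The apolipoprotein genes apoa4b.1 (-1.10) and apoa4b.2 (-0.97) and the fatty acid binding protein gene fabp2 (-0.60) fell with wider control spreads, and each lost its call without any 1 EWS-FLI1 replicate (highest adjusted p = 0.141). fabp2 lost it also without control replicate 2 or 3.

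Steroid synthesis and steroid receptor response genes gave 1 rise and 1 fall among 29 measured, beside 5.65% raised and 7.12% fallen among all genes. sgk1, a kinase gene that corticosteroids induce in mammals, rose by 3.03 (SE 0.12, adjusted p = 1.7e-06), from 6.48, 6.52 and 6.74 to 9.80, 9.46 and 9.58. Other glucocorticoid responsive genes, named after their values were seen, were not called: fkbp5 gave -0.43 (adjusted p = 0.0527), klf9 -0.27 (adjusted p = 0.0945) and tsc22d3 -0.08 (adjusted p = 0.616). hsd3b2, an enzyme of steroid synthesis, fell by 0.73 (adjusted p = 0.0168), called neither without control replicate 1 nor without replicate 1 or 2 of EWS-FLI1 (adjusted p up to 0.0837).

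In the clock list 1 of 25 genes fell, bhlhe41 (-0.69, SE 0.14, adjusted p = 0.0156), a repressor gene not called without replicate 1 or 2 of EWS-FLI1 (adjusted p up to 0.0714). The median of that list was 0.01, and among all genes 7.12% fell.

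Markers of other cells were measured in the same fit, in which 7.12% of all genes fell and 5.65% rose. Of 12 enveloping layer markers evpla (-0.52) and ppl (-0.41) fell and krt94 (3.86) and krt18b (2.51) rose. Both raised genes were within background in controls and above it in EWS-FLI1 embryos. The summed linear level of the 12 was 20200 to 22100 in controls and 19000 to 21500 in EWS-FLI1 embryos. The yolk syncytial layer markers, a list that includes apolipoprotein genes, had falls of fn1b (-0.80) and fn1a (-0.59) among 13 and sums of 13500 to 15300 and 13100 to 13200. Of 10 oocyte markers zp3c (0.54) and zar1 (0.43) rose, with sums of 400 to 469 and 497 to 529. zp3c, too, was within background in controls and above it in EWS-FLI1 embryos. The zar1 call (limma adjusted p = 0.0493) held in 4 of 13 alternatives. That of ppl held in 7 of 13, and that of evpla, within background in both groups, in 6 of 12. Blood and vessel markers included rises of lmo2 (3.44), tie1 (1.37), fli1rs (1.11) and kdrl (0.90) among 14, with sums of 216 to 274 and 371 to 425. These 4 were within background in controls and above it in EWS-FLI1 embryos. Of the 14, 8 were within background in both groups, among them gata1a, tal1 and hbbe2. Above background in both groups, hbae3 (-0.29, adjusted p = 0.26) and mpx (-0.06, adjusted p = 0.87) were not called. These 5 uncalled genes were named after their values were seen. As signs of RNA quality, the 3' less 5' gap of the GAPDH control probe sets was 0.38 apart between groups and that of acta1 -0.32 (exact permutation p = 0.1 each, the smallest that 3 against 3 allows). The part of these markers and of RNA quality in the falls of receptor and enzyme genes was not tested.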

How the data were processed

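The deposited log2 values give each probe set's RMA summary on every array, and per the submitters' processing notes the authors used RMA, affy and R 2.2.0. RMA corrects background, normalizes between arrays and compresses small differences of dim probe sets. Base 2 was taken from the range, 1.58 to 13.46, since no source names the base. The table holds 15617 probe sets, and 115 controls of the manufacturer did not enter. Annotation gave 1 gene to 10795, with symbols updated through Entrez identifiers (10711 matched a RefSeq gene table, 1 changed). Models with 2 group means were fitted in limma 3.58.1 under R 4.3.3 (two-sided) with Benjamini-Hochberg adjustment. All 6 arrays entered, and precision is limited by having 3 a group. In the 11 gene lists a gene was represented by its brightest probe set on average. Every called gene of the rule was named, with up to 4 called genes of a list, and others are marked as named after their values were seen. The genes, lists and tests were chosen with earlier results of these data known. The background reference and the paralog test were added after the values were seen. The fit was tested on simulated data. Figures used matplotlib 3.10.9. The labels call the samples biological replicates without naming clutches, so p-values measure the spread between pools. Alternatives were a replicate block, each array left out, other scalings, dim probe sets left out, other priors, a stricter threshold, weighting of arrays, a minimum change and 1 probe set per gene.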

Additional observations from a re-analysis of the deposited data

How the results depend on the processing

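Of the 14 called receptor and enzyme probe sets 10 were called under the block, with any 1 array left out, after either rescaling, without dim probe sets (where kept), with either prior and with array weights, and the second probe set of rarga, the third of cyp26b1, rarab and rxrab each lost the call in at least 1 of these. The stricter threshold and the minimum change, given as counts, called fewer. No difference called in the main analysis or under these alternatives changed its direction. No pairing by replicate number showed in the values, as deviations of same-numbered arrays from their group means correlated at -0.08, -0.10 and -0.08. Whether same-numbered pools were handled together was not tested. With the replicate number as a block rarab was lost (adjusted p = 0.0547) and 2 member pairs of 1 gene differed instead of 1. Leaving out 1 array gave 433 to 1286 fallen and 450 to 1023 raised probe sets over the whole array, and 9 to 16 fallen and 1 to 3 raised receptor and enzyme probe sets. The same ranges were 1 to 3 for cyp26, 2 to 4 for retinoic acid receptors, 0 to 3 for retinoid X receptors, 3 to 4 for COUP factors and 0 to 3 for pairs of 1 gene. For the gene lists, calls in either direction were counted, with genes of the rule kept in. These ranges were 5 to 8 (retinoid handling), 10 to 19 (retinoic acid responsive), 1 to 2 (coregulators), 1 to 6 (lipid), 1 to 3 (steroid) and 0 to 2 (clock). On the full lists the main analysis gave 4 fallen and 2 raised of 19 (handling), and 15 fallen and 1 raised of 33 (responsive). Retinoid X receptor calls numbered 2 after renewed quantile normalization, median centring or a robust prior and 3 with array weights. Coregulator calls numbered 2 after median centring or with array weights and 3 with a trended prior or without dim probe sets, and clock calls 2 with array weights. Without dim probe sets 0 receptor or enzyme probe sets rose, 1 of cyp26 was called, and 0 of the steroid and of the retinoid X receptors. This filter lay above the background reference of 4.23. It dropped nr2f1a (mean 4.23 over the 6 arrays), the third cyp26b1 probe set (4.32) and rxrga (4.85), and kept the first of cyp26b1 (5.10). At an adjusted p under 0.01 the whole array had 411 fallen and 415 raised probe sets. Of receptors and enzymes 1 was raised, the second probe set of esr1, within background. Fallen ones at that threshold were aldh1a2, cyp26a1, raraa, nr2f1a, nr2f5, nr2f6b, both probe sets of nr0b2a and the first of rarga. Calls there numbered 1 for cyp26, 2 for retinoic acid receptors, 0 for retinoid X receptors, and 1, 1 and 0 for the lipid, steroid and clock lists. With a minimum change of 1.2-fold the whole array had 290 and 308, and receptors and enzymes 7 fallen and 0 raised. By class this left aldh1a2 0, cyp26 1, steroid receptors 0, retinoic acid receptors 1 and retinoid X receptors 0. By list, with genes of the rule again kept in, it left 3 (handling), 8 (responsive), 0 (coregulators), 1 (lipid), 1 (steroid) and 0 (clock). With 1 probe set per gene 628 fell and 504 rose over the array, and cyp26 and nr0b2a had 1 call each. The stricter threshold and the minimum change call fewer by construction, and 1 probe set per gene tests fewer. Leaving out an array gave fewer or more calls depending on the array, the most receptor and enzyme calls coming without control replicate 2, and the cause of this and of the other shifts was not tested. Signal limits the 26 probe sets within background in both groups.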

Other observations

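The hnf4 genes are nuclear receptors whose symbols fall outside the rule. hnf4a, a receptor gene of yolk and gut endoderm, gave 7.09, 6.88 and 6.52 in controls and 6.21, 6.33 and 6.45 in EWS-FLI1 embryos at its first probe set. The groups did not overlap there, but the difference of -0.50 (SE 0.14) was not called by limma (adjusted p = 0.0602). Its second probe set, within background, differed by -0.16 (adjusted p = 0.579). hnf4b (-0.13, adjusted p = 0.658) and hnf4g (0.13, adjusted p = 0.407) were not called, the latter within background in both groups.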
